A study of Mus musculus with 3 samples.

Results

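The long intergenic RNA regions of a mouse expression array are stretches of the genome, named by their coordinates, that the array annotates as long intergenic noncoding RNA. Of the 16194 probes for such regions, 3138 (19.4%) had their midpoint over 100 kb from the midpoint of every probe for a RefSeq protein-coding transcript on the same chromosome, and these 3138 are the members described here. Of the remaining region probes 12938 lay within 100 kb and 118 carried no position. The array held 55681 probes that were not controls. The members belonged to 997 of the array's 4610 regions, each counted by strand, to 801 intervals and, after overlapping intervals were joined, 566 loci on 20 chromosomes. They were split evenly between the strands, with 1553 on the forward and 1585 on the reverse strand, and each was 60 bases long and printed once. An interval had a median length of 13.5 kb, from 62 bases to 534 kb, and a region and strand had a median of 3 probes and at most 10. The median distance of a member to the nearest protein-coding probe was 172 kb, with quartiles of 124 and 273 kb, a largest value of 2097 kb, and 85 members over 1000 kb. Coordinates are those of the array annotation, on mm9.

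Much of a mammalian genome outside protein-coding genes is transcribed. Long intergenic noncoding RNAs are transcripts of this kind, most of them spliced, present at low levels and specific to a cell type. Some are hosts from which microRNAs or small nucleolar RNAs are cut, as Mir17hg, Mirg and the RNAs around Snrpn and Ipw are, and a few, such as Pvt1 beside Myc and Firre on the X chromosome, have been studied as regulators in their own right. Others mark an active enhancer or promoter, where RNA is made from both strands. In the brain many of them are expressed in particular types of neuron or glia. Histone deacetylase inhibitors raise histone acetylation, which marks active promoters and enhancers.

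The cells were primary cerebral cells, taken at embryonic day 18 from C57BL6/J mice, cultured in a neuronal medium and treated from day 10 in vitro for 24 h. One culture was given 1 mM valproate, an antiepileptic drug that inhibits class I histone deacetylases, in 0.1% DMSO. The control was given 0.1% DMSO alone, and the last culture 100 µM lamotrigine, an antiepileptic drug that blocks sodium channels, in 0.1% DMSO. Per the labels, the lamotrigine array was made for other work on antiepileptic drugs and was left out of the study of histone deacetylase inhibitors. There was 1 array per treatment, so every value below describes 3 RNA samples, and no difference was tested or checked on a replicate. The question the series put was which genes differ with a histone deacetylase inhibitor, and the same comparison is made here for RNA far from protein-coding probes.

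A level is the scaled signal, set so that the 75th percentile of each array's probes equals 100, and a difference is the log2 ratio of scaled signals. Signals of different probes also depend on how each probe binds, so an order of signals is not an order of RNA amounts. A probe was called detected where its signal was marked as well above background. The 3 arrays were on 1 slide, their 75th percentiles of signal were 372 to 478, and no spot was saturated. Defining markers of neurons, astrocytes, the oligodendrocyte lineage and fibroblasts were detected on all 3 arrays for every marker on the array. Of the 4 microglial markers 2 were detected, and of 3 endothelial markers 1. Of 4 genes listed as not of brain, 2 were also detected on all 3 arrays, Ins2 (52.7 with DMSO) and Myh6 (14.5 with DMSO). Detection at such signals is thus weak evidence that a transcript is present. The summed scaled signal of the 5 astrocyte markers was 15991 with valproate, 34428 with DMSO and 34468 with lamotrigine, and that of the neuronal markers was 10495, 15185 and 13396. Most of the astrocyte sum was 1 probe, that for Aldoc (10073, 25995 and 25605). The largest part of the neuronal sum was the probe for Tubb3 (3996, 7649 and 6399). Of the other astrocyte markers Aqp4, Slc1a3 and S100b were lower with valproate than with DMSO, while Gfap had 2332 against 2242, and of the neuronal markers Snap25 had 1484 against 1317. In RNA from a whole culture, fewer cells of a type and less RNA per cell cannot be told apart.

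The sequences below carry the results that follow, and all were read from the array files, 5′ to 3′. The first set comes from the locus of Pvt1 on chromosome 15. Capitals mark the hexamer AATAAA, the usual polyadenylation signal, on the probe's own strand, and 5 of the 6 probes do not hold it. The first is identical to the array's own probe for Pvt1, the following 4 are the forward members at least 2-fold higher with valproate, and the last is the reverse member farthest below the control.
A_30_P01029562, chr15:62082471-62082530, forward: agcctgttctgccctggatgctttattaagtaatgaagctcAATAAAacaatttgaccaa
A_30_P01029551, chr15:62086046-62086105, forward: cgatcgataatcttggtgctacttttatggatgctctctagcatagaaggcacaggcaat
A_30_P01032036, chr15:62090879-62090938, forward: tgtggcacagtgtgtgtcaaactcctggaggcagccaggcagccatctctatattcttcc
A_30_P01031040, chr15:62090939-62090998, forward: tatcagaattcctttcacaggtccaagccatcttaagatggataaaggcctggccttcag
A_30_P01027182, chr15:62091417-62091476, forward: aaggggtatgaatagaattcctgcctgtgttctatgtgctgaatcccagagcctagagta
A_30_P01019658, chr15:61993990-61994049, reverse: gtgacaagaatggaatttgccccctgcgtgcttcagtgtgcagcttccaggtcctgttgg

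The second set holds the other members that the comparison with valproate turned on, with no AATAAA in any of them. They are the highest difference of all, the members near Abcc4 and Gpr149, 1 of the 5 near Pou3f1, the adjoining pair near Otx2, a member with a high signal near Jun, and a probe of the Mir17hg locus.
A_30_P01017490, chr8:122807727-122807786, reverse: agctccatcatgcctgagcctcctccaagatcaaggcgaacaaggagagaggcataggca
A_30_P01032840, chr14:118774727-118774786, reverse: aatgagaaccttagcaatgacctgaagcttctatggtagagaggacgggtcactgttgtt
A_30_P01019468, chr3:62755889-62755948, forward: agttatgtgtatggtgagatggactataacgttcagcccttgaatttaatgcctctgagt
A_30_P01019540, chr4:124200308-124200367, reverse: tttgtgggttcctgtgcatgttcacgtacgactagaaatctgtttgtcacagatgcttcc
A_30_P01024086, chr14:49412903-49412962, forward: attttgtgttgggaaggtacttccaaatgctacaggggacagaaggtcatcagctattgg
A_30_P01031980, chr14:49412964-49413023, forward: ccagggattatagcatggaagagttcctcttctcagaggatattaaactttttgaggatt
A_30_P01032942, chr4:94822842-94822901, forward: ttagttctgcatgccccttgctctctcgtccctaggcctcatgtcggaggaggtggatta
A_30_P01028277, chr14:115440273-115440332, forward: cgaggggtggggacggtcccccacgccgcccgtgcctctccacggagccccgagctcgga

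The third set shows a repeat, a microRNA hairpin and a pair on opposite strands. The 3 probes from the locus of the noncoding RNA 5031425E22Rik each hold 1 stretch at 2 places, which the capitals mark, so they read a tandem repeat. The member from the Mirg locus has in capitals the 41 bases it shares with the hairpin of the microRNA Mir410 in RefSeq. The last pair are reverse complements of each other, at the same 60 bases of chromosome 5.
A_30_P01027135, chr5:22890069-22890128, reverse: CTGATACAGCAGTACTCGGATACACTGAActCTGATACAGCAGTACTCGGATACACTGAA
A_30_P01028374, chr5:22890323-22890382, reverse: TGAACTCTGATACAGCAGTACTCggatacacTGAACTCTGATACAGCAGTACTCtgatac
A_30_P01025339, chr5:22890352-22890411, reverse: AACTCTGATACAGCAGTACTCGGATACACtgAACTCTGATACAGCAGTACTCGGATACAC
A_30_P01029937, chr12:110981965-110982024, forward: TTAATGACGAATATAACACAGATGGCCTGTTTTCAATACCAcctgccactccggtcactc
A_30_P01020690, chr5:110180659-110180718, forward: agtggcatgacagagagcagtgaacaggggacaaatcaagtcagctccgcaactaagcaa
A_30_P01028392, chr5:110180659-110180718, reverse: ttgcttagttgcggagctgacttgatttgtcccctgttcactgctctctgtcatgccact

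The distance was measured to a probe, which sits at 1 point of a gene, so a member can lie over 100 kb from that point and still be inside or beside the gene. Of the 3138 members, 6 lay between 2 probes of 1 protein-coding gene, Maml3, a coactivator of Notch signalling. A further check used the promoter windows of RefSeq (GRCm38.p6, 250 bases before to 50 after each gene's start). In it 40 members matched the window of a protein-coding gene on their own chromosome over at least 40 bases, 21 of them over all 60, and 11 of the 40 were detected on all 3 arrays. The member A_30_P01030168, listed as 106 kb from Cycs, began 10 bases before the start of Osbpl3, an oxysterol-binding protein, and had 1216 with DMSO, 1180 with lamotrigine and 942 with valproate. These members are therefore far from the array's coding probes, not all of them far from coding genes. The closest to the threshold were 5 members between 100 and 100.3 kb, of which A_30_P01025385 near Cmc1 was detected on all 3 arrays (6.69 with DMSO, 7.42 with lamotrigine, 7.87 with valproate). Just under it were 5 region probes at 99.9 to 100.0 kb, of which A_30_P01032339, also near Cmc1, was detected on all 3 (6.98, 7.99 and 6.26). At the other end, 4 of the 5 farthest members lay near 1 point of chromosome 1, 2097 kb from the probe for Dsel, and the remaining one lay 2082 kb from Igfbp7. Of these 5, 4 were detected on none of the arrays and A_30_P01018551 on the lamotrigine array alone (6.19).

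Between 23.2% and 27.3% of the members were detected on an array. The counts were 728 of 3138 with DMSO, 805 (25.7%) with lamotrigine and 858 with valproate. On all 3 arrays 686 members (21.9%) were detected, on at least 1 array 936 (29.8%), and on none 2202. The order of the arrays was the same for the 12937 region probes within 100 kb that had levels, at 26.0%, 28.8% and 29.5%, and for probes of protein-coding transcripts, at 67.3%, 68.8% and 70.3%. Over all probes the shares were 48.5%, 50.6% and 51.7%. Members detected on 1 array only numbered 99 for valproate, 52 for lamotrigine and 16 for DMSO. These were 3.15%, 1.66% and 0.51% of members, beside 2.33%, 1.23% and 0.38% of all probes, in the same order of arrays. The lowest signal that counted as detected, in scaled units, was 5.29 with DMSO, 4.63 with lamotrigine and 3.88 with valproate. The array with the most detected members thus had the lowest scaled floor. Before scaling the floor was 19.7 with DMSO, 18.0 with lamotrigine and 18.6 with valproate, and the valproate array had the highest 75th percentile of signal (478). The part of the floor in this order was not tested.

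**Figure D1:**
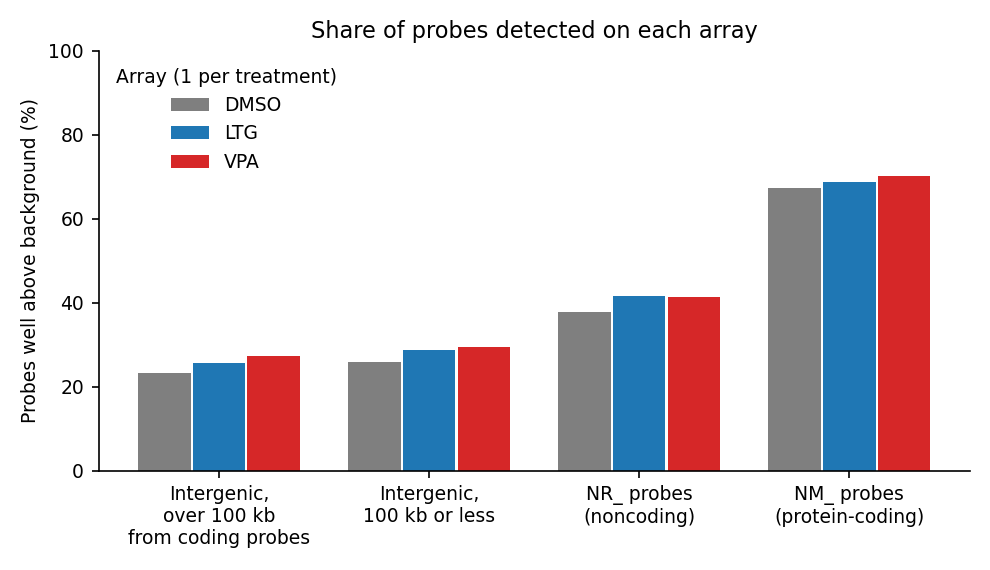
Share of probes well above background (%) on the DMSO, lamotrigine (LTG) and valproate (VPA) arrays, 1 array each, for the members, for region probes within 100 kb, for RefSeq noncoding (NR_) and for RefSeq protein-coding (NM_) probes. The members sit at 23.2 to 27.3%, and the protein-coding probes at 67.3 to 70.3%.

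Detected members differed from the rest in base composition. The share of G and C was 46.4% on average (SD 9.10 over 686 members) in detected members and 42.8% (SD 6.59) in the others. In region probes within 100 kb it was 45.9% and 43.7%, and in protein-coding probes 42.2% and 41.8%. Of the members with at most 30% G and C, 3.64% were detected on all 3 arrays, of those between 40 and 45% 19.1%, of those between 50 and 60% 34.8%, and of the 57 members above 60% 75.4%. Without the ribosomal RNA locus described below, 33 of 47 members above 60%, from 28 loci, were detected (70.2%). The trend was not particular to the members. Of region probes within 100 kb, 14.3% were detected at most 30% G and C, 32.0% between 50 and 60%, and 58.3% above 60%. Among protein-coding probes the same bins held 55.2% to 72.6%. With distance the share was 20.8% to 25% up to 500 kb, then 12% for the 191 members between 500 and 1000 kb and 9.41% for the 85 beyond. The hexamer AATAAA, searched on the probe's own strand, was in 3.82% of members, 3.97% of region probes within 100 kb and 13.2% of protein-coding probes of the same length. The chromosomes ranged from 0 of 10 members detected on chromosome 19 to 32.6% of 135 on chromosome 17, where a single locus held 20 of the 44 detected.

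**Figure D2:**
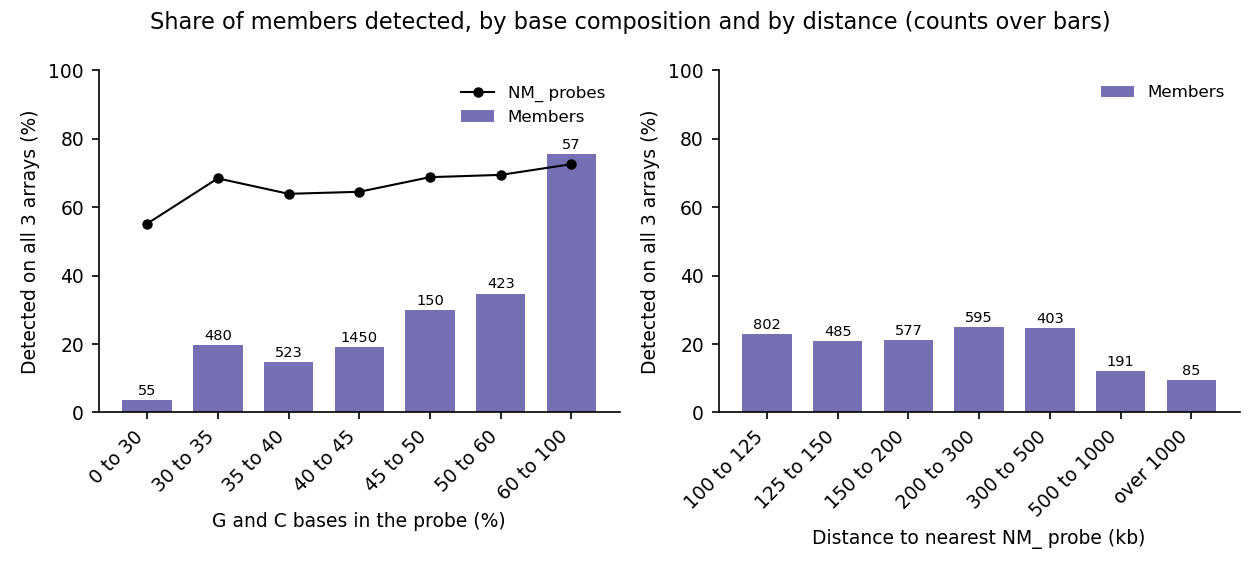
Share of members detected on all 3 arrays (%) by the G and C content of the probe (left, with protein-coding NM_ probes as a line) and by distance to the nearest NM_ probe (right, kb), with the number of members over each bar. The bars run from 3.64% to 75.4% with G and C content and stay between 20.8% and 25% up to 500 kb.

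Annotation and shared sequence also went with detection. In regions that hold another, named probe of the array on the same strand, 195 of 598 members (32.6%) were detected, and in the remaining regions 19.3% of 2540. At least 40 bases identical to another kind of probe, a RefSeq promoter window or a RefSeq hairpin were found in 141 members, of which 55 (39.0%) were detected, against 21.1% of the 2997 with no match. Where the matching probe was placed on another chromosome, 20 of 30 members (66.7%) were detected. On the same strand, 74 members overlapped another member by position, 27 of them detected, and 19 pairs were reverse complements. These share a target and are not separate measurements.

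Levels of the members were low. Over the 686 detected on all 3 arrays the median scaled signal was 22.2 with DMSO, 22.5 with lamotrigine and 21.3 with valproate, and for protein-coding probes it was 153, 150 and 152. Most of the detected members lay under 25 on each array (53.9%, 52.9% and 56.7%), and 56, 55 and 50 lay over 400. The technical spread in this range was measured on 399 probes printed 10 times on each array, none of them a member. It came to 0.24 to 0.25 (log2, SD of a difference between single spots) for signals under 25 and to 0.06 to 0.07 for signals over 400.

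With valproate the median member was slightly lower than with DMSO, and few members moved far. Detection on both arrays left 702 members to compare. Among them 10 (1.42%) exceeded the control at least 2-fold, beside 1.63% of all probes, and 8 (1.14%) were at least 2-fold lower, beside 1.27% of all probes. Taken over all signal levels, the shares of members past 2-fold were thus near those of all probes. Their median difference was -0.16 (SD 0.39) beside -0.10 over all 26538 probes, and 222 (31.6%) lay above 0, beside 37.8% of all probes. The region probes within 100 kb had a median of -0.16 and the protein-coding probes -0.07. Of the 18 members past 2-fold, 16 had a mean signal under 25, in the range with the widest technical spread, and no member between 25 and 100 or over 400 was past it. Under 25 that was 3.99% of members, beside 5.05% of all probes, and between 100 and 400 it was 2.63% beside 2.08%. Of all probes, 3.65% were past 2-fold between 25 and 100 and 0.88% over 400. Another 156 members were detected with valproate and not with DMSO, 9 of them at least 2-fold above the floor of the DMSO array (8.51% of all such probes), and 26 with DMSO and not with valproate, 8 of them at least 2-fold (30.9% of all such probes).

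The sign of the median and the split of the calls rest on the scaling between arrays. Scaling on the spike-in controls moved the median of all probes by 0.33, the members' median to 0.16, and the calls to 28 higher and 1 lower (96.6% higher, against 55.6%). The calls over all probes went from 433 higher and 337 lower to 1113 and 117 (90.5% higher, against 56.2%). Since this scaling adds 1 constant to every probe of an array, the members' median minus that of all probes was -0.07 with or without it, and it was -0.10 under quantile normalization and -0.10 under normexp. Under normexp background correction, with an offset of 50 added to every signal, 2 of the higher calls and none (0) of the lower calls were left. All probes then had 154 higher and 105 lower. The astrocyte marker sum on the valproate array was 15991 against 34428 with DMSO, with 4 of the 5 markers lower and Gfap slightly higher, and its part in the members' differences was not tested.

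**Figure D3:**
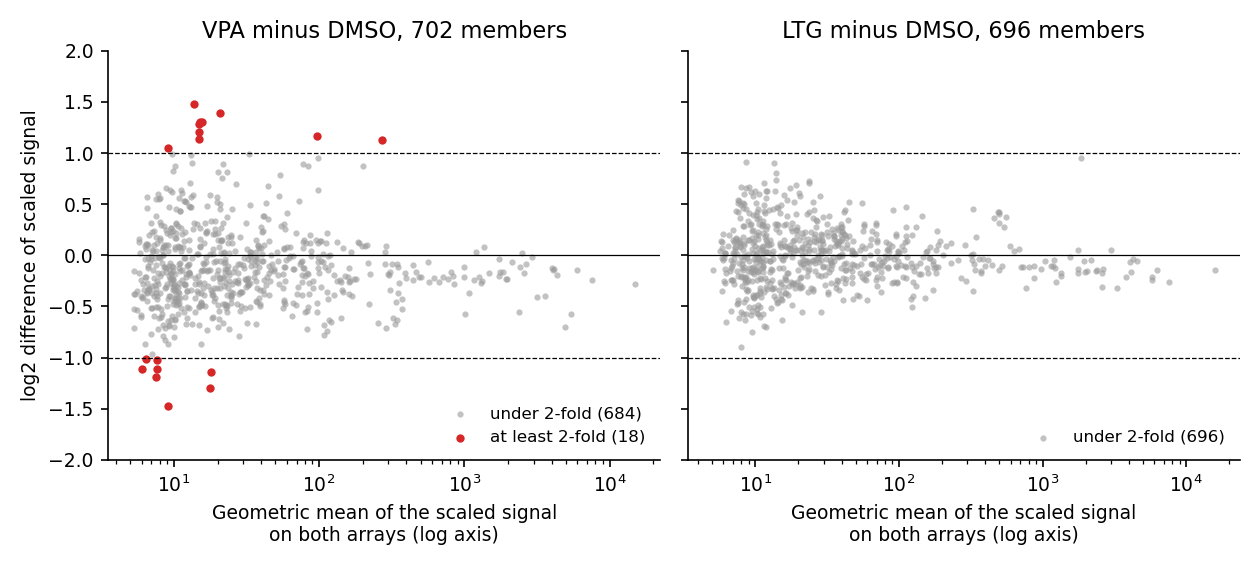
Difference from DMSO (log2) of each member detected on both arrays against the geometric mean of its scaled signal (log axis), for valproate (VPA, left, 702 members) and lamotrigine (LTG, right, 696 members), with dashed lines at 2-fold. The 18 coloured points with valproate lie mostly under a signal of 25, and with lamotrigine no point lies beyond the lines.

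The 10 members at least 2-fold higher with valproate came from 7 loci, and 4 of the 10 from the locus of Pvt1. Highest was A_30_P01017490 on the reverse strand of chromosome 8, 117 kb from Fam92b, with 8.29 with DMSO, 4.88 with lamotrigine, where it was not detected, and 23.0 with valproate (1.48). Fam92b, whose product takes part in building cilia, went the other way on its own probe, with 129 with DMSO, 159 with lamotrigine and 55.2 with valproate (-1.23). The member A_30_P01032840 near Abcc4, a transporter of organic anions, had 12.8 with DMSO, 18.0 with lamotrigine and 33.6 with valproate (1.39), while Abcc4 itself had 111, 124 and 122 (0.13). A_30_P01019468, with the highest signal of the 10, lay 422 kb from Gpr149, an orphan receptor that was not detected. It had 183 with DMSO, 202 with lamotrigine and 401 with valproate (1.13), and it kept a difference of 1.13 under normexp.

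The remaining 3 outside the Pvt1 locus had weak signals. On chromosome 6, A_30_P01026345 near Iqsec1, an exchange factor for ARF proteins at synapses, had 9.80 with DMSO, 14.5 with lamotrigine and 22.5 with valproate (1.20). A_30_P01030626 near Ccdc28a had 10.1, 12.8 and 22.2 in the same order (1.13). A_30_P01027014 near Odz3, a teneurin of neuronal membranes, had 6.37, 9.12 and 13.2 (1.05). In all 3 the lamotrigine array also lay above DMSO, by less. Among members detected with valproate but not DMSO, the largest was A_30_P01023168 near Rps6kc1, at least 3.37-fold higher with valproate (18.1), and it was detected with lamotrigine too (8.76). A_30_P01030282, in the Pvt1 locus, was at least 2.97-fold higher with valproate (16.7) and not detected with lamotrigine.

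The 8 members at least 2-fold lower with valproate came from 7 loci and had signals of 8.81 to 27.9 with DMSO. The adjoining pair on chromosome 14, 135 kb from Otx2, gave like values. A_30_P01024086 had 27.9 with DMSO, 29.0 with lamotrigine and 11.4 with valproate (-1.30), and A_30_P01031980 had 26.9, 25.5 and 12.2 (-1.14). Otx2, a homeobox transcription factor of the forebrain and eye, had 490 with DMSO, 522 with lamotrigine and 498 with valproate (0.02). In this pair DMSO and lamotrigine were close and valproate stood apart. The rest were single probes. A_30_P01031740 near Cdkn2b, a cell cycle inhibitor, had 11.5 with DMSO, 7.65 with lamotrigine and 5.03 with valproate (-1.19), and Cdkn2b itself was 0.45 above DMSO. Those near Tns1 (A_30_P01022642, -1.11), Nr2f2 (A_30_P01029527, -1.11), Ywhaq (A_30_P01031025, -1.02) and Gse1 (A_30_P01021171, -1.02) had 8.81 to 11.2 with DMSO and 4.09 to 5.36 with valproate, close to the floor. Of the 6 nearest genes detected on both arrays, 3 lay above 0 and 3 below, none (0) of them past 2-fold, and for the higher members the counts were also 3 and 3, with Fam92b alone past 2-fold.

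The locus of Pvt1 held 4 of the 10 members at least 2-fold higher with valproate. Pvt1 is a noncoding RNA gene downstream of the proto-oncogene Myc, a transcription factor that drives growth. The interval chr15:61984389-62102500 and those inside it held 26 members, 173 to 274 kb from the Myc probe. On all 3 arrays 17 of them were detected. Of the 13 on the forward strand, the strand of Pvt1, 12 were higher with valproate than with DMSO, at -0.12 to 1.30 with a median of 0.89, beside -0.10 over all probes. With lamotrigine the same 13 lay at -0.51 to 0.14, with a median of -0.17 beside -0.04 over all probes. The 4 on the reverse strand were all lower with valproate, at -0.17 to -1.47.

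In a stretch of adjoining forward probes lamotrigine was below DMSO and valproate on top. A_30_P01027182 had 64.8 with DMSO, 57.5 with lamotrigine and 145 with valproate (1.17). A_30_P01021592, the next probe downstream, had 70.3, 51.9 and 136 (0.95), and A_30_P01031174, which adjoins it, had 147, 103 and 270 (0.88). These 3 neighbours read 1 short stretch near chr15:62091417-62091615 and each had its highest signal with valproate and its lowest with lamotrigine. The next pair upstream, A_30_P01032036 and A_30_P01031040, adjoin each other, and had 9.99 and 9.68 with DMSO, 9.15 and 8.16 with lamotrigine, and 24.7 and 23.9 with valproate (1.30 for both).

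Other forward probes lay closer to Myc, and 1 probe lay beyond. A_30_P01029562, the probe identical to the array's own Pvt1 probe, had 78.4 with DMSO, 63.6 with lamotrigine and 122 with valproate (0.64), and the Pvt1 probe had 83.5, 61.6 and 128 (0.62). Its neighbour A_30_P01027654 had 57.0, 50.7 and 106 (0.89). A second Pvt1 probe outside the members had 98.9, 72.8 and 134 (0.44). The group was not uniform. A_30_P01026887, between members past 2-fold, had 177, 167 and 193 (0.13), and A_30_P01027502, the one farthest from Myc, had 31.5, 30.8 and 29.0 (-0.12).

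The reverse strand of the locus went the other way. A_30_P01019658 had 15.2 with DMSO, 9.31 with lamotrigine and 5.46 with valproate (-1.47), the lowest difference among the members detected on both arrays. The other 3 reverse probes adjoin each other 229 kb from Myc and had 29.0 to 32.2 with DMSO and 22.5 to 25.9 with valproate. The array's probe for H2afy3, a transcribed pseudogene of a histone variant on the reverse strand within the interval, had 1057 with DMSO, 904 with lamotrigine and 683 with valproate (-0.63). Myc itself had 89.4, 77.4 and 67.3 (-0.41). Of the forward members, 12 of 13 stayed above 0 under normexp, where the median was 0.52 and 1 was past 2-fold, and 13 of 13 under spike-in scaling. On the reverse strand 1 of the 4 turned above 0 under spike-in scaling. A_30_P01027182 was the only one of the 18 called members that was past 2-fold under every alternative tried for single members.

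**Figure D4:**
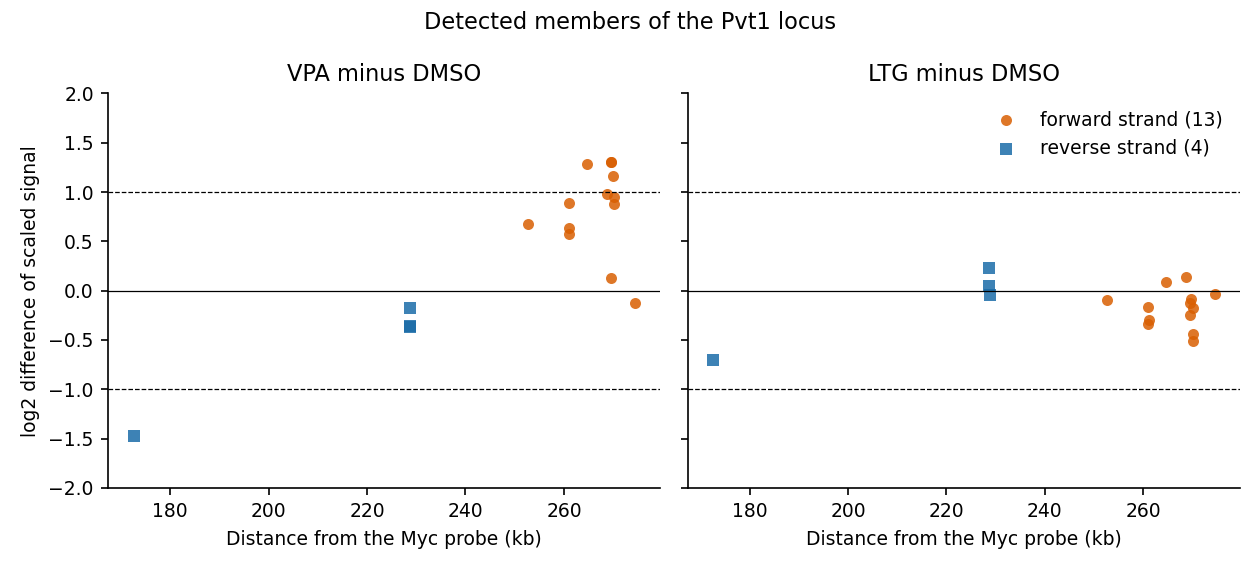
Difference from DMSO (log2) of the 17 detected members of the Pvt1 locus against distance from the Myc probe (kb), with valproate (VPA, left) and lamotrigine (LTG, right), forward strand as circles and reverse strand as squares, dashed lines at 2-fold. With valproate 12 of 13 forward probes lie above 0 and all 4 reverse probes below, and with lamotrigine the forward probes lie between -0.51 and 0.14.

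A locus whose detected members were all higher with valproate lay near Pou3f1 on chromosome 4. Pou3f1 is a transcription factor of neural precursors and Schwann cells. The joined interval chr4:124091663-124334840 held 9 members. Of the 6 on the reverse strand 5 were detected, and of the 3 on the forward strand 0. The 5 lay at 0.53 to 0.99 with valproate (median 0.78) and at -0.39 to 0.04 with lamotrigine. A_30_P01019540 had 62.3 with DMSO, 53.1 with lamotrigine and 114 with valproate (0.88), and its neighbour A_30_P01017577 had 41.3, 34.7 and 71.0 (0.78). Each of the 5 was higher with valproate than on both other arrays. Pou3f1 had 422 with DMSO, 363 with lamotrigine and 486 with valproate (0.20). A named noncoding RNA of the same interval and strand, 1700057H15Rik, had 110, 131 and 101 (-0.11). The 5 kept their direction under each scaling tried, with a median of 0.50 under normexp. Of the 35 loci with at least 5 detected members, this was the only 1 with all detected members above 0, while 8 had all below and 26 had both signs.

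The locus of the noncoding RNA 5031425E22Rik on chromosome 5 went the other way in every detected member. It held 11 members on the reverse strand within chr5:22801058-22939737, between Lhfpl3, a membrane protein, and Mll5, a protein related to histone methyltransferases. The 9 detected lay at -0.42 to -0.87 with valproate (median -0.62) and, in 8 of 9, above 0 with lamotrigine (median 0.36). A_30_P01028374 had 421 with DMSO, 563 with lamotrigine and 266 with valproate (-0.67). A_30_P01027135 had 430, 568 and 277 (-0.64), and A_30_P01025339 had 431, 579 and 320 (-0.43). In all 3 lamotrigine was highest and valproate lowest.

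Sequence shows how far these probes are separate. Of the 9, 5 lay within chr5:22890040-22890502, held a stretch of 19 to 29 bases at 2 places, and shared at least 20 bases with each of the other 4, so they read 1 repeat and count as 1 target. Their signals with DMSO were 402 to 445. The 4 outside the repeat had 106, 28.5, 20.9 and 12.7 with DMSO and 64.3, 21.3, 11.4 and 8.25 with valproate (-0.72, -0.42, -0.87 and -0.62), so the direction was the same without the repeat. The array's own probes for 5031425E22Rik gave -0.40 in both that were detected on all 3 arrays, at 680 and 27.7 with DMSO. All 9 members stayed below 0 under each scaling, with a median of -0.29 under spike-in scaling. Only 7 of the 3138 members held a stretch of 20 or more bases at 2 places.

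Members at the host genes of microRNAs are given by locus, beside 62.2% of all probes below 0 and a median of -0.10 with valproate. Mir17hg is the host of a microRNA cluster that promotes proliferation, and its locus on chromosome 14, 323 to 329 kb from Gpc5, had 13 detected members. The 8 on the forward strand had a median of -0.18 and the 5 on the reverse strand one of -0.50. The highest signals were those of A_30_P01028277 on the forward strand, with 370 with DMSO, 290 with lamotrigine and 226 with valproate (-0.71), and A_30_P01031683 on the reverse strand, with 320, 269 and 202 (-0.66). They overlap by position at 78% and 80% G and C. A_30_P01029746, identical to the array's Mir17hg probe, had 20.9 with DMSO, 22.0 with lamotrigine and 16 with valproate (-0.39), and that probe had 22.4, 22.1 and 16.4 (-0.45). Under spike-in scaling 5 of the 8 forward and 1 of the 5 reverse members turned above 0.

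**Figure D5:**
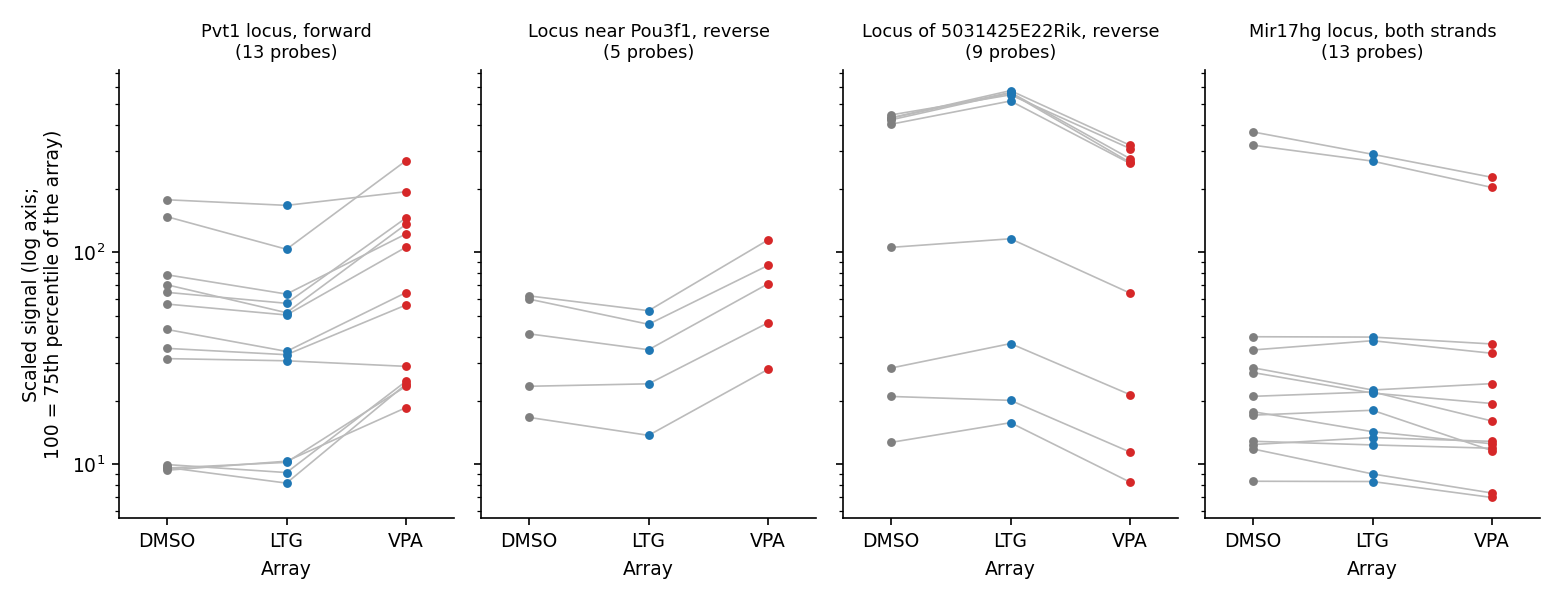
Scaled signal (log axis) of the detected members of 4 loci on the DMSO, lamotrigine (LTG) and valproate (VPA) arrays, 1 array each, with a line for each probe. All 5 probes near Pou3f1 are highest with VPA, all 9 of 5031425E22Rik are lowest with VPA, and the strongest Mir17hg probes run from 370 and 320 with DMSO to 226 and 202 with VPA.

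Mirg hosts microRNAs of the imprinted region around Meg3 on chromosome 12, where the noncoding RNAs come from the maternal copy and Rtl1 from the paternal one. Its locus, 154 to 158 kb from Rtl1, held 26 members and 11 detected. The 10 on the forward strand were all lower with valproate, at -0.05 to -0.68 (median -0.34), and near DMSO with lamotrigine, at -0.22 to 0.29. A_30_P01027949 had 82.3 with DMSO, 70.7 with lamotrigine and 58.8 with valproate (-0.49). A_30_P01029937, the probe that holds part of the Mir410 hairpin, had 11.7, 12.6 and 8.75 (-0.42). An array probe for Mirg had 524, 517 and 407 (-0.37). Under spike-in scaling 5 of the 10 turned above 0. The reverse probe A_30_P01030641 had 6.24 with DMSO, 11.8 with lamotrigine and 9.13 with valproate, close to the floor.

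The imprinted region of chromosome 7 that is expressed from the paternal copy gave mixed signs. One locus near Ndn, a growth suppressor of neurons, had 12 detected members, 367 to 438 kb from the Ndn probe. Its 9 reverse members lay at -0.17 to 0.59 with valproate and at 0.03 to 0.58 with lamotrigine, all 9 of them above 0, but with valproate only 4 of the 9 were above 0 under normexp. Its member with the highest signal, A_30_P01032698 on the forward strand, had 460 with DMSO, 432 with lamotrigine and 430 with valproate (-0.10). Closer to Snrpn, which encodes a splicing protein, 5 members were detected. A_30_P01023754, which matches the array's Ipw probe over 58 bases, had 40.1, 45.2 and 28.2 (-0.51), and the Ipw probe had 27.0, 38.2 and 22.3 (-0.28).

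Firre is a noncoding RNA of the X chromosome that binds nuclear proteins through a repeat. In its locus the 3 detected forward members lay at -0.12 to -0.01 with valproate, with A_30_P01030915 at 168 with DMSO, 149 with lamotrigine and 154 with valproate. The 4 reverse members, on the strand of Firre, lay at 0.01 to 0.52, and A_30_P01031034 had 16.5, 19.5 and 23.7. Of these 4, 3 stayed above 0 under normexp, at no more than 0.09. The array's own probes on that strand, listed as 6720401G13Rik, an older name of Firre in RefSeq, gave 0.20 and 0.25 in the 2 that were detected.

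The highest signals lay at a locus of ribosomal RNA. The locus chr17:39960567-39992817, 359 to 364 kb from Pgk2, holds the array's probe for Rn18s, the RNA of the small ribosomal subunit. All 20 of its members were detected, 10 on each strand, and they made up 5 of the 10 members with the highest signals and 18 of the first 40. A_30_P01020015 had 16551 with DMSO, 15030 with lamotrigine and 13645 with valproate (-0.28), and the Rn18s probe had 31793 with DMSO and 25752 with valproate (-0.30). All 20 were lower with valproate, at -0.02 to -0.56, and this direction depended on the scaling. Under spike-in scaling 18 of the 20 were above 0, and under quantile normalization 3 were. Without this locus the members gave the same 10 and 8 calls and a median of -0.16.

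Other members with high signals lay at separate loci, and some matched a coding gene. A_30_P01021251, on the reverse strand near Serp2, had 8254 with DMSO, 6885 with lamotrigine and 6994 with valproate (-0.24). Its locus held 5 detected members on the forward and 8 on the reverse strand. A_30_P01032942, 106 kb from Jun, an immediate early transcription factor, had 6290 with DMSO, 5306 with lamotrigine and 3875 with valproate (-0.70), and Jun had 1060, 1208 and 850 (-0.32). A_30_P01020476 on the X chromosome, whose reverse complement matches the promoter window of the noncoding RNA Gm14636 over all 60 bases, had 6614, 5971 and 4431 (-0.58). Both were lowest with valproate, and both stayed below 0 under spike-in scaling. A_30_P01032678 is identical to the probe for Rbmxl1 over 55 bases and had 1192 with DMSO, 1109 with lamotrigine and 1219 with valproate (0.03). A_30_P01019730 matches the reverse complement of a probe for the ribosomal protein gene Rpl26 over 53 of 56 bases and had 542, 505 and 469 (-0.21). Both stayed within 0.21 of DMSO.

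With lamotrigine none (0) of the 696 members detected on both arrays was at least 2-fold from DMSO in either direction, beside 0.143% of all probes higher and 0.0717% lower. The median was -0.03 (SD 0.28), and the differences ran from -0.90 to 0.95. The highest was A_30_P01026605 on the reverse strand of chromosome 16, 958 kb from Igsf11, with 1326 with DMSO, 2558 with lamotrigine and 1399 with valproate (0.95). It was named after its values were seen. Igsf11, an adhesion molecule, had 154, 179 and 74.9. Under quantile normalization 1 member was past 2-fold higher than DMSO, beside 30 of all probes. Another 109 members were detected with lamotrigine and not with DMSO, 5 of them at least 2-fold (5.22% of all such probes), and 32 with DMSO and not with lamotrigine, 1 of them at least 2-fold (6.2% of all such probes). The largest of these was A_30_P01024504, between 2 probes of Maml3, with 27.3 with lamotrigine and 1.48 with DMSO, at least 5.15-fold. It was followed by A_30_P01020793 near Cdh5, an endothelial cadherin, with 20.6 and 1.43, at least 3.9-fold. Both were undetected with valproate, and none of the other 5 members between the Maml3 probes was detected.

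Against lamotrigine, which shared the slide with valproate and DMSO, 12 of 743 members were at least 2-fold higher with valproate, beside 1.59% of all probes, and 8 at least 2-fold lower, beside 1.49% of all probes. Either way 2.69% of members were past 2-fold, beside 3.08% of all probes, and 32.8% lay above 0, beside 42.9% of all probes. The median was -0.14 beside -0.05 over all probes. The 3 highest, A_30_P01031040 (1.55), A_30_P01032036 (1.43) and A_30_P01031174 (1.39), were forward members of the Pvt1 locus. Lowest were A_30_P01024086 near Otx2 (-1.35), A_30_P01026742 near Thbs1 (-1.12) and A_30_P01028374 of the 5031425E22Rik repeat (-1.09). The comparisons of valproate with DMSO and with lamotrigine use the same valproate array.

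Probes of 1 region gave a view of how far the single values hold together. Of 171 regions with at least 2 detected members, 114 (66.7%) had all of them on 1 side of 0 with valproate, 30 above and 84 below, and for regions within 100 kb the share was 66.4%. With lamotrigine 80 (46.8%) did, and 45.2% of those within 100 kb. Of single members, 31.6% lay above 0 with valproate and 46.6% with lamotrigine. The part of this shift in the shares of regions was not tested. Within a region the range of the differences had a median of 0.29 with valproate and of 0.32 with lamotrigine. Probes of a region share 1 RNA sample and often 1 transcript, so they are not replicates of a treatment.

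Transcripts from both strands of 1 interval were seen in a minority. Of 196 intervals with members on both strands, 42 had detected members on both, 41 on the forward strand only, 39 on the reverse strand only and 74 on neither. In the 2 strands of chr11:19778600-19815950 near Spred2, an inhibitor of growth factor signalling, the strongest probes had 147 and 152 with DMSO and 94.8 and 128 with valproate (-0.63 and -0.24). In the interval near Iqsec1, chr6:90745692-90777977, they had 115 and 127 with DMSO and 93.3 and 139 with valproate (-0.31 and 0.13). Of the 19 pairs of members at the same bases of both strands, 2 were detected on all 3 arrays in both members. The pair near Larp7 was slightly lower with valproate on both strands, with A_30_P01023003 at 13.0 with DMSO and 11.2 with valproate (-0.21) and A_30_P01027675 at 60.04 and 55.6 (-0.11). The other pair differed in sign. At chr5:110180659-110180718, which lies 112 to 53 bases before the RefSeq start of the zinc finger gene 4930522L14Rik, the forward probe A_30_P01020690 had 6.92 with DMSO, 7.77 with lamotrigine and 5.97 with valproate. The reverse probe A_30_P01028392, in the gene's own direction, had 16.1, 16.1 and 29.9 (0.89). This stretch also matches the promoter window of a related gene, 5430403G16Rik, over 45 bases.

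Noncoding RNAs with a name gave a background for these loci. Of 53 names on a list of known long noncoding RNAs, 26 were on the array and 21 were detected with valproate and DMSO. None (0) was at least 2-fold higher or lower with valproate, beside 2.9% of all probes either way, and the median was -0.19, beside -0.10. With the probe of the highest mean signal taken for each name, the 4 farthest from 0 were Six3os1, an RNA opposite the eye and forebrain gene Six3 (-0.54), H19, an imprinted growth-related RNA (0.49), Peg13, an imprinted neural RNA (-0.47), and Mir17hg (-0.45). With lamotrigine the median was 0.01, beside -0.04 over all probes, and 1 of the 21 was past 2-fold, beside 0.215% of all probes. It was Neat1, the scaffold of nuclear paraspeckles, with 119 with DMSO, 242 with lamotrigine and 140 with valproate (1.02). None of the probes for the listed names is a member, though those for Pvt1, Mirg and Mir17hg lie inside members' intervals.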

How the data were processed

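Spot intensity on 3 single-colour Agilent arrays was read with Feature Extraction 10.7.1.1, and probes were placed on mm9, per the file headers. The processed signal in the scanner files is intensity after background subtraction within an array, per the file headers. Normalized intensity values were deposited as well, with the same set of values on each array; they served as an alternative, and the software behind them is not given in the sources used here.

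Levels were log2 processed signal minus the log2 75th percentile of the non-control spots, without outlier spots (1 probe was left with no level). A member detected on 1 array only was set against the detection floor of the other. Sequences were compared with blastn 2.17.0+ (word size 11, at least 40 identical bases). Members, lists and the rule for named members were chosen with earlier results of these data known. The rule took the largest differences and bounds, the 10 strongest members, those nearest to and farthest from the threshold, and regions with 4 or more detected members, and others were named after their values were seen. RefSeq names and sequences are of GRCm38.p6. Calculations used Python 3.11.15 and limma 3.58.1 (normexp, offset 50), and the code that computes differences was checked on simulated signals.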

Additional observations from a re-analysis of the deposited data

How the results depend on the processing

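No paired analysis was possible because each treatment had 1 array. The values were recomputed under 18 alternatives, 2 of them (leaving out members with a sequence match, and the ribosomal RNA locus) chosen after seeing the data. Of 234 values of the main results, 167 stayed within a set limit of the main value, 66 moved past it and 1 reversed. For a median difference the limit was 0.24, the technical SD of a difference, so a smaller change of sign was not counted as a reversal. The cause of a change was not tested unless named. Counts over other probes or at another threshold are not directly comparable with the main counts.

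In the order higher and lower, the main counts at 2-fold were 10 and 8 for valproate against DMSO, 0 and 0 for lamotrigine against DMSO, and 12 and 8 for valproate against lamotrigine. With 1 probe per region they were 6 and 5 for valproate against DMSO and 3 and 3 against lamotrigine, and 35.6% were detected on all 3 arrays in place of 21.9%. At 1.5-fold they were 37 and 60, 22 and 9, and 37 and 62. Over all probes that threshold gave 1482 and 1690, 425 and 266, and 1468 and 1730. Of these calls with valproate against DMSO, 38.1% were higher among members and 46.7% among all probes. At 3-fold valproate gave 0 and 0 against either array, beside 96 and 45, and 101 and 57, over all probes. Over 200 kb the members' counts were 6 and 1 for valproate against DMSO, with 2 lower against lamotrigine. Over 50 kb they were 23 and 17 for valproate against DMSO, with 1 higher for lamotrigine and 20 higher for valproate against lamotrigine. With distance taken to protein-coding, noncoding RefSeq and Ensembl probes, they were 6 and 5 for valproate against DMSO and 1 and 4 against lamotrigine, 19.4% were detected, and the median level minus that of protein-coding probes was -3.05 in place of -2.80. In the alternatives of region or distance, all probes kept 433 and 337, 38 and 19, and 432 and 405.

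With the looser detection mark of the scanner software, the counts were 61 and 104, 62 and 63, and 62 and 118, and 40.1% were detected. All probes gave 1212 and 1605, 901 and 720, and 1098 and 1941. The members' SD was 0.56 for lamotrigine against DMSO and 0.64 for valproate against lamotrigine, the level difference was -3.71, and 52.2% of regions were on 1 side of 0 in place of 66.7%. With no detection filter the counts were 137 and 297, 179 and 159, and 118 and 300. All probes then gave 2064 and 3528, 2294 and 1829, and 1794 and 4045. The members' median of valproate against DMSO was -0.45, its SD 0.65, that of lamotrigine against DMSO 0.58, the level difference -4.64 and the share of regions 50.4%.

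Under normexp the counts were 2 and 0 for valproate against DMSO and 3 and 1 against lamotrigine, the level difference was -2.13 and the share of regions 77.8%. All probes gave 154 and 105, and 168 and 120. Under quantile normalization lamotrigine had 1 higher and valproate against lamotrigine 5 lower, beside 30 and 365 of all probes. The authors' deposited table gave lamotrigine 1 and 1 and valproate against lamotrigine 5 lower, beside 30 and 32, and 365, of all probes. Spike-in scaling, on 6 of 10 spike-in probes, gave 28 and 1, 3 higher for lamotrigine, and 20 and 1 for valproate against lamotrigine. All probes gave 1113 and 117, 93 higher for lamotrigine, and 668 and 263. The members' median of valproate against DMSO reversed to 0.16, and those of lamotrigine against DMSO (0.15) and valproate against lamotrigine (0.02) also turned above 0.

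Of 1786 values of single named members, 235 moved by at least 0.24, counted among members under 2-fold. A reversal was counted only for the 18 called members, and none (0) of their values changed sign. Other members could change sign uncounted, as A_30_P01020015 did, from -0.28 to as much as 0.05. The 18 called members had 176 of the 1786 values, of which 141 were past 2-fold and 35 were not. Of the 35, 16 were under normexp, 10 with lamotrigine as the control and 7 under spike-in scaling.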

Other observations

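Some probes that are not members lie inside members' intervals and had signals where the members there had none above background. They were picked after their values were seen. In the interval on chromosome 1 near Insig2, the probe for the noncoding RNA listed as B230209K01Rik had 52.4 with DMSO, 45.5 with lamotrigine and 20.1 with valproate (-1.38), while both members of that interval, A_30_P01025575 and A_30_P01026328, were undetected on all 3 arrays. In the chromosome 3 interval near Pcdh10, a cadherin of neurons, the probe for the noncoding RNA 2610316D01Rik, on the opposite strand, had 52.4 with DMSO, 49.4 with lamotrigine and 99.7 with valproate (0.93), and the 3 members were undetected.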
